A study of Mus musculus with 8 samples.

Results

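The genes described here are 10 feedback regulators and transcription factors of the Ras-MAPK pathway, namely Spry1, Spry2, Spry4, Spred1, Spred2, Dusp4, Dusp6, Etv1, Etv4 and Etv5. Every probe set whose annotation held a single one of these symbols was taken, which gave 27 of the 45101 probe sets on the array, for 9 of the 10 genes. The 3 probe sets of Etv1 carry a second gene symbol as well, so Etv1 has no value here. Of the 27 probe sets, 22 passed the filter on low intensity and were tested, with at least 1 for each of the 9 genes. The Etv genes are transcription factors themselves, not targets chosen for Etv binding.

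The Ras-MAPK pathway carries signals from growth factor receptors such as the FGF and ErbB receptors through the small GTPase Ras and the kinases Raf, Mek and Erk to the nucleus. Active Erk switches on its own inhibitors, and the levels of Sprouty, Spred and Dusp transcripts are therefore widely read as a record of Erk activity. The Etv factors, members of the ETS family, are themselves induced by FGF signalling and act on its target genes. In the atrioventricular canal, the heart segment in which the valves begin as endocardial cushions, this pathway is known to take part in the change of endothelial cells into cushion mesenchyme.

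Expression was measured in 8 samples, each pooled from 10 microdissected atrioventricular canals of mice on a mixed C57BL6/129 background. The 4 control pools were Gata4flox/flox. The 4 mutant pools were Gata4flox/flox; T2Cre+, called Gata4T2del by the submitters, in which a Cre transgene removes Gata4, a zinc finger transcription factor of the heart, from endothelium and the cushion mesenchyme that descends from it. Both groups thus carry the floxed alleles. The labels mention Cre for the mutants and not for the controls, and no source used here gives the age of the animals. The muscle of the canal was not a target of the deletion. RNA came from whole canals, in which fewer cells of a type and less RNA per cell cannot be told apart. Gata4 itself changed by -0.15 on its brighter probe set (SE 0.11, limma adjusted p = 0.585). Its dimmer probe set, above background on 2 controls and 4 mutants, changed by 0.98 (SE 0.46, adjusted p = 0.388). No source used here says whether either lies in the deleted part, so these values do not check the deletion.

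Controls 2 and 3 stood apart from the other arrays. Bacterial control probe sets, a measure of background, had a median signal of 158 and 135 on these arrays and of 4.0 to 39.3 on the other 6. They also had the smallest shares of probe sets above background, 44.4% and 48.0%, and the lowest weights in the fit, 0.302 and 0.35. That share separated the whole groups as well. Control 1 reached 57.4% and control 4 reached 61.0%, below every mutant (64.5%, 64.1%, 72.6% and 66.5% for mutants 1 to 4). A probe set above background in more mutants than controls thus follows a difference seen over the whole array. The design text reports that 2 control samples were left out as noisy without naming them, and the deposited table holds 4 controls. The change of each measurable member probe set is therefore given with all 8 arrays and again without controls 2 and 3. The fit on all 8 arrays used array weights. Unless stated otherwise, values without controls 2 and 3 come from a fit without array weights, so the 2 values differ in both respects. Markers of cardiomyocytes, cushion mesenchyme and the canal (11, 10 and 4 genes) were tested in full, and all 11 muscle and all 10 mesenchyme markers were above background on every array. The canal markers Bmp2 and Tbx3 were also above background on all 8 arrays.

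RefSeq sequence of assembly GRCm38.p6 around the gene starts was searched for GATA and ETS motifs, since the mutants lack a GATA factor and the Etv proteins bind ETS motifs. Windows from 250 bases before to 50 bases after a gene start were used for 7 of the 10 genes, 9 windows in all. Member windows on 1 chromosome were left out, while the share over all windows kept that chromosome. A gene without a window here may therefore have one. The letters GATAA, on either strand, stood in 1 of these windows, that of Dusp6, against 25.4% of all 32851 windows. The letters CCGGAA stood in 1, that of Spry2, against 14.9% of all windows, and AGGAAGT stood in 3, those of Spred2, Etv1 and Etv5, against 9.35%. CCGGAA and AGGAAGT share the letters GGAA, the core of ETS motifs. Of the genes whose values are described next, the windows with a match are shown 5′ to 3′ on the gene's strand, with the matched letters in capitals. Windows without a match are not shown. For Dusp6 and Spred2 these are the 250 bases before the gene start, and for Spry2 and Etv5 they are 30 bases around the match, which lies just after the gene start. A match is a string of letters and not a measured binding site.
Dusp6 at chr10:99262981-99263230, plus strand: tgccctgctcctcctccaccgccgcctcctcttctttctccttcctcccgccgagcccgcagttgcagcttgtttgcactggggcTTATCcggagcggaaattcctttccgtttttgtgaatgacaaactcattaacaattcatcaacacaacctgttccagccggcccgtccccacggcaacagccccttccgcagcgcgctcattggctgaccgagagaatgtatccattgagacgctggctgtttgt
Spred2 at chr11:19924192-19924441, plus strand: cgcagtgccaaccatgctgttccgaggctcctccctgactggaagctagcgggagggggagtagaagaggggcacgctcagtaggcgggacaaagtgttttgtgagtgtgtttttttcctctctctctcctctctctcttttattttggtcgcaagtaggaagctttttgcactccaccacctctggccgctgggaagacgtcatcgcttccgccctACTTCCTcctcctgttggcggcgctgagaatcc
Spry2 at chr14:105896770-105896799, minus strand: gaggtcatctatcCCGGAAtccgggagggt
Etv5 at chr16:22438350-22438379, minus strand: acgacgacacaaAGGAAGTggtttaaactc

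The comparison of mutant with control pools asks whether the transcripts of this feedback system differ when endothelium and its descendants lack Gata4. Values are log2(intensity + 16) after quantile normalization, and changes are mutant minus control on that scale. Over the 27022 probe sets tested, limma called 12 at an adjusted p under 0.05, 7 higher and 5 lower, which is 0.0444% (0.0259% higher and 0.0185% lower). Of the 22 member probe sets, 0 were called, and 2 had an unadjusted p under 0.05, against 12.6% of all probe sets. The groups did not overlap for 2 of the 22, one higher in the mutants and one lower, against 7.63% of all probe sets (4.44% higher and 3.19% lower). Changes were positive for 13 and negative for 9, against 53.8% and 46.2% of all, and their median was 0.02 against 0.03 for all. In these counts the members did not stand out from the rest of the array.

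The plot of values by array shows the 22 tested probe sets.

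**Figure D1:**
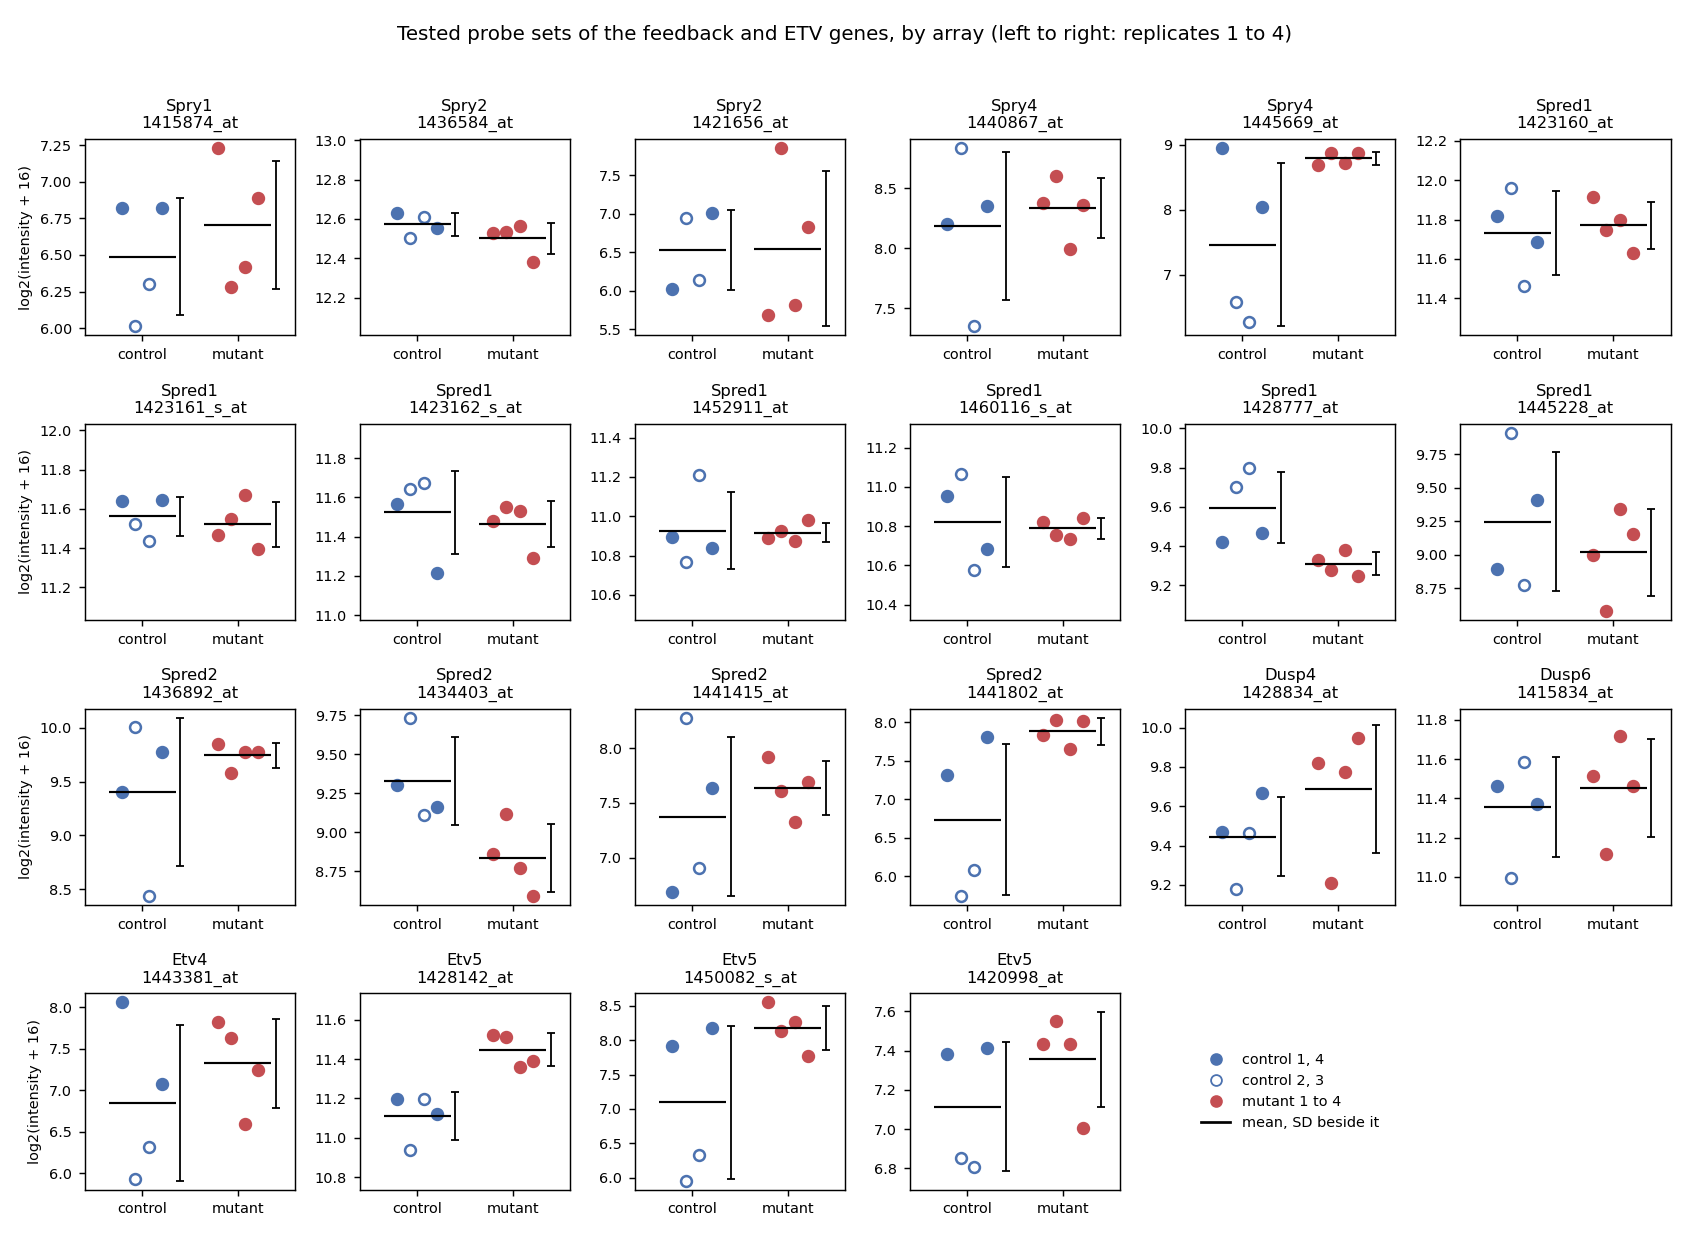
Each panel plots log2(intensity + 16) of 1 tested probe set on its own vertical axis, at least 1 log2 unit tall, for control and mutant replicates 1 to 4 from left to right. Horizontal lines are group means, the bars beside them are 1 SD over the 4 arrays, and open circles are controls 2 and 3. Only Etv5 1428142_at (mutants above) and Spred1 1428777_at (mutants below) show groups that do not overlap.

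Etv5 was the member with the smallest p. Its protein is an ETS activator induced by FGF signalling. On its brightest probe set, 1428142_at, controls 1 to 4 had log2 values of 11.20, 10.94, 11.20 and 11.12 and mutants 1 to 4 had 11.52, 11.52, 11.36 and 11.39. All 4 mutants lay above all 4 controls. The means were 11.11 ± 0.12 and 11.45 ± 0.08 (SD, n = 4 each). The weighted change was 0.27 (SE 0.09, 95% interval 0.08 to 0.46, a 1.21-fold difference, limma adjusted p = 0.284), which did not pass the threshold over all probe sets. It was 0.30 without controls 2 and 3 (SE 0.10, adjusted p = 0.584) and 0.25 to 0.31 with any 1 array left out.

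The other Etv5 probe sets were dimmer and above background on 2 of 4 controls and all 4 mutants. On 1450082_s_at, a type of probe set that can bind more than one transcript, the controls had 7.92, 5.95, 6.33 and 8.18 and the mutants 8.55, 8.13, 8.27 and 7.78. Controls 2 and 3 were the low arrays, while controls 1 and 4 lay within the mutant range. The change of 0.54 (SE 0.37, adjusted p = 0.552) was 0.15 without controls 2 and 3. It passed in fits that left out control 1 (1.57, adjusted p = 0.0464) or control 4 (1.51, adjusted p = 0.0489), apart from median-centred arrays. On 1420998_at the change was 0.04 (SE 0.33, 95% interval -0.66 to 0.74, adjusted p = 0.975), and -0.04 without controls 2 and 3.

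Etv4, a close relative of Etv5, was near background. On its tested probe set, 1443381_at, the controls had 8.06, 5.93, 6.32 and 7.07 and the mutants 7.82, 7.63, 6.60 and 7.24. The groups overlapped over nearly the whole range. The weighted change was -0.18 (SE 0.45, 95% interval -1.14 to 0.77, adjusted p = 0.892). Without controls 2 and 3 it was -0.27, and -0.47 with array weights kept. On all 8 arrays without array weights it was 0.48, so that its direction was not settled. The other Etv4 probe set, 1423232_at, was above background on 0 control arrays and 1 mutant array and did not pass the filter. Its values ran from 4.82 to 6.94.

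The Sprouty proteins restrain signalling from receptor tyrosine kinases to Ras and Raf. Spry2 was bright on its probe set 1436584_at, with 12.63, 12.50, 12.61 and 12.55 in the controls and 12.53, 12.53, 12.56 and 12.38 in the mutants. The groups overlapped, and mutant 4 was the lowest array. The means were 12.57 ± 0.06 and 12.50 ± 0.08, and the change was -0.10 (SE 0.07, 95% interval -0.24 to 0.05, adjusted p = 0.556). This interval was the narrowest among the members. The change was -0.09 without controls 2 and 3. The second Spry2 probe set, 1421656_at, was above background on 1 control array and 2 mutant arrays, with values from 5.69 to 7.86, and no size of change is given for it.

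Spry1, on 1415874_at, was close to background in these canals, above it on 2 of 4 control and 3 of 4 mutant arrays. The controls had 6.82, 6.01, 6.30 and 6.82 and the mutants 7.23, 6.28, 6.42 and 6.89, which overlap. Its change was 0.03 (SE 0.45, 95% interval -0.92 to 0.97, adjusted p = 0.986), and the interval is wide in both directions. Without controls 2 and 3 the sign was the other, at -0.10.

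Spry4 is represented by 4 probe sets, of which 2 passed the filter. On 1440867_at, above background on all 8 arrays, the controls had 8.20, 8.84, 7.35 and 8.35 and the mutants 8.37, 8.60, 7.996 and 8.36. Its change was 0.05 (SE 0.26, adjusted p = 0.959), and 0.07 without controls 2 and 3, or -0.03 there with array weights kept. On 1445669_at the controls had 8.96, 6.58, 6.27 and 8.04, and the mutants kept to a narrow range of 8.69, 8.87, 8.73 and 8.88. Control 1 was the highest of all 8 arrays and controls 2 and 3 the lowest. The change of 0.69 (SE 0.37, adjusted p = 0.442) was 0.34 without controls 2 and 3, and 2.10 without control 1 (adjusted p = 0.0154) and 1.70 without control 4 (adjusted p = 0.0281). The other 2 Spry4 probe sets, 1422021_at and 1422020_at, were above background on 0 control arrays and 1 mutant array each, with values from 4.60 to 6.48.

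The Spred proteins, relatives of the Sprouty family, bring the Ras inhibitor neurofibromin to the membrane. Spred1 had 8 probe sets, and 7 of them were above background on every array. The brightest, 1423160_at, read 11.82, 11.96, 11.46 and 11.69 in the controls and 11.92, 11.75, 11.80 and 11.63 in the mutants, with a change of 0.005 (SE 0.09, 95% interval -0.19 to 0.20, adjusted p = 0.989). The next 4, 1423161_s_at, 1423162_s_at, 1452911_at and 1460116_s_at, changed by -0.07, -0.04, 0.01 and -0.05, with SE values of 0.10 to 0.11. All 5 thus lay between -0.07 and 0.01. Without controls 2 and 3 the 5 values, in the same order, were 0.02, -0.12, 0.07, 0.05 and -0.03.

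A sixth Spred1 probe set, 1428777_at, was the one with mutants wholly below the controls. The controls had 9.42, 9.70, 9.80 and 9.47 and the mutants 9.33, 9.28, 9.38 and 9.25. Controls 2 and 3 were the highest arrays, and controls 1 and 4 lay just above mutant 3. The change was -0.19 (SE 0.15, adjusted p = 0.609), and -0.15 without controls 2 and 3. With any 1 array left out it ran from -0.38 to -0.14. The seventh, 1445228_at, changed by -0.01 (SE 0.22, adjusted p = 0.989), and -0.15 without controls 2 and 3. The last, 1443652_x_at, was above background on 0 control and 2 mutant arrays and was not tested.

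The probe sets of Spred2 differed in direction. On the brightest, 1436892_at, the controls had 9.40, 10.00, 8.44 and 9.78 and the mutants 9.85, 9.58, 9.77 and 9.77, with a change of 0.30 (SE 0.19, 95% interval -0.09 to 0.70, adjusted p = 0.506). That change was 0.17 without controls 2 and 3, 0.58 without control 1 and 0.55 without control 4. On the next, 1434403_at, the controls had 9.30, 9.74, 9.11 and 9.16 and the mutants 8.86, 9.12, 8.77 and 8.59. Only mutant 2 overlapped the controls there. The change was -0.52 (SE 0.19, 95% interval -0.91 to -0.12, adjusted p = 0.307), the lowest among the members, and -0.45 without controls 2 and 3.

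The dimmer Spred2 probe sets, 1441415_at and 1441802_at, changed by 0.42 (SE 0.34, adjusted p = 0.613, and 0.51 without controls 2 and 3) and 0.71 (SE 0.37, adjusted p = 0.432). The second was highest among the members, and its controls had 7.31, 5.74, 6.08 and 7.81 against 7.84, 8.03, 7.66 and 8.02 in the mutants. Controls 2 and 3 were again low, and the change was 0.37 without them. It passed in the fit without control 4 (1.56, adjusted p = 0.0447). The fifth probe set, 1423001_at, was above background on 1 array of each group and was not tested. No source used here says which part of the Spred2 transcript each probe set reads, and the difference between the changes of the probe sets was not tested.

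Dusp6 and Dusp4 are phosphatases that remove phosphate from Erk, Dusp6 in the cytoplasm and Dusp4 in the nucleus. On 1415834_at, Dusp6 read 11.46, 10.995, 11.59 and 11.37 in the controls and 11.52, 11.12, 11.72 and 11.46 in the mutants. The groups overlapped across their whole range, with means of 11.35 ± 0.26 and 11.45 ± 0.25. The change was 0.13 (SE 0.13, 95% interval -0.14 to 0.39, adjusted p = 0.694), and 0.04 without controls 2 and 3. With array weights kept, it was 0.11 without those controls. Leaving out mutant 3 alone gave 0.009. Within each group the lowest array was replicate 2.

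On 1428834_at, Dusp4 read 9.47, 9.18, 9.46 and 9.67 in the controls and 9.82, 9.21, 9.77 and 9.95 in the mutants. The other 3 mutants lay above every control, while mutant 2 lay near the lowest control. The change was 0.28 (SE 0.18, 95% interval -0.10 to 0.65, adjusted p = 0.522), 0.13 without controls 2 and 3, and 0.18 without mutant 4. With array weights kept, it was 0.23 without controls 2 and 3. Both phosphatases were above background on all 8 arrays.

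The plot of changes by probe set compares the fit on all arrays with the fit without controls 2 and 3.

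**Figure D2:**
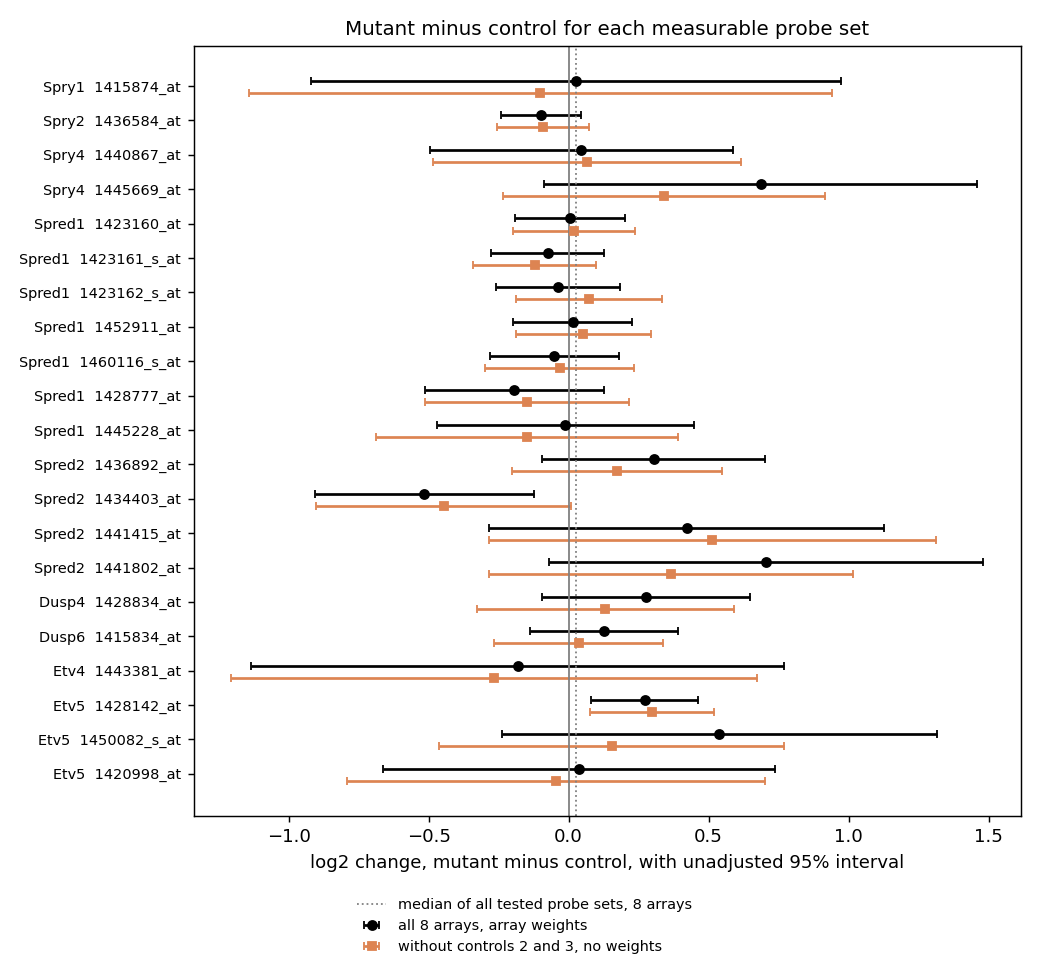
Points are log2 changes, mutant minus control, with unadjusted 95% intervals, for the 21 tested probe sets above background on at least 2 arrays of each group. Black is the fit on all 8 arrays with array weights, and orange is the fit without controls 2 and 3 and without array weights. The dotted line marks the median over all tested probe sets, 0.03. With all arrays, only the intervals of Etv5 1428142_at (0.08 to 0.46) and Spred2 1434403_at (-0.91 to -0.12) leave out 0.

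Controls 2 and 3 were the lowest 2 of the 8 arrays on 5 member probe sets, namely Spry4 1445669_at, Spred2 1441802_at, Etv4 1443381_at and Etv5 1450082_s_at and 1420998_at, against 20.7% of all tested probe sets. The 5 of 22 members are close to that share. The 3 largest positive changes among the members, 0.71, 0.69 and 0.54, came from this set and were 0.37, 0.34 and 0.15 without those controls. The fourth largest, Spred2 1441415_at, differed in this respect. Control 2 was its highest array, and its change was 0.42 with those controls and 0.51 without them. The change of Etv5 1428142_at was 0.27 with them and 0.30 without them.

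Other genes of the pathway were read on the brightest probe set of each. Among 29 further feedback genes, all 29 had a probe set and 23 were tested, with 0 called, 11 positive and 12 negative changes and a median of -0.02. At an unadjusted p under 0.05 there were 2 of the 23, against 12.6% of all probe sets. These were Dusp1 and Dusp5, both MAP kinase phosphatases. Dusp1 read 12.33, 11.78, 11.67 and 12.33 in the controls and 12.92, 12.61, 12.60 and 12.60 in the mutants, a change of 0.46 (SE 0.11, limma adjusted p = 0.195). All mutants were above all controls, and the change was 0.35 without controls 2 and 3. Dusp5, which acts on Erk in the nucleus, also had mutants above all controls. Its change was 0.38 (SE 0.13, adjusted p = 0.298) with all arrays, and 0.22 without those controls. Dusp8 changed by -0.59 (SE 0.28, adjusted p = 0.400), and -0.25 without them. The groups did not overlap for 2 of the 23, against 7.63% of all probe sets.

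Transcripts listed as responsive to Erk, early or later, gave changes of both signs. Of 24 listed, 20 were tested, with 0 called, 7 positive, 13 negative and a median of -0.07. An unadjusted limma p under 0.05 was found for 5 of the 20, against 12.6% of all probe sets. Fos, a component of the AP-1 transcription factor, read 9.17, 9.48, 7.97 and 8.90 in the controls and 9.89, 9.87, 9.89 and 9.80 in the mutants. All 4 mutants were above the controls and close together. The change was 0.89 (SE 0.19, adjusted p = 0.116), and 0.91 without controls 2 and 3. Ier3, an early response gene, had the same order of groups, and its change was 0.68 (SE 0.15, adjusted p = 0.141), and 0.69 without those controls. Cyclin D1, Ccnd1, changed by -0.28 (SE 0.10, adjusted p = 0.284) on its brightest probe set, and by 0.54 and -0.07 on the others. The groups did not overlap for 3 of the 20, against 7.63% of all probe sets. The third of these, named after its values were seen, was Jun, a partner of Fos in AP-1, which had all mutants below all controls (means 12.09 and 11.94, change -0.17, adjusted p = 0.349). Egr3, also named after its values were seen, changed by -0.86 (SE 0.37, adjusted p = 0.365).

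Upstream of Ras, 23 of 33 listed receptors and ligands were tested, and the median change was 0.01. Of these, 1 was called higher and 1 lower, against 0.0259% and 0.0185% of all probe sets. The groups did not overlap for 5 of the 23, against 7.63% of all probe sets. An unadjusted limma p under 0.05 was found for 4 of the 23, against 12.6% of all probe sets. Erbb3, a neuregulin receptor, fell by 1.12 (SE 0.17, limma adjusted p = 0.0183) on the brightest of its 2 probe sets, and the other is not described here. Pdgfa, a platelet-derived growth factor ligand, rose by 0.66 (SE 0.06, adjusted p = 9.35e-05) on its brightest probe set, with 0.03 on the other. Without controls 2 and 3 the change of Erbb3 was -1.11 and did not pass (adjusted p = 0.126), while Pdgfa did. The core from adaptor proteins to Erk and its nuclear targets had 21 tested of 31 listed, with 0 called. Its changes were positive for 11 and negative for 10, with a median of 0.003, and the groups overlapped for all 21. An unadjusted limma p under 0.05 was found for 2 of the 21. The phosphatase Ptpn11 changed by -0.14 (SE 0.06, adjusted p = 0.382) and the GTPase Rras2 by -0.15 (SE 0.07, adjusted p = 0.385). Ksr1, a scaffold for Raf and Mek, was above background on 1 control array, so no size is given for it.

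Beside the members and their neighbours, marker genes of several cell types shifted between the groups. Cushion mesenchyme markers had negative changes in 9 of 10, with a median of -0.58, and their mean log2 level ran from 11.09 to 11.35 in the controls and from 10.52 to 11.07 in the mutants. Endothelial markers had positive changes in 7 of 11 tested (median 0.33, 8.23 to 8.83 against 8.88 to 9.05). The 4 negative changes were those of Tek, which was called lower, Npr3 (-0.56), Cdh5 (-0.19) and Nfatc1 (-0.09). For Npr3 all mutants lay below all controls. The largest positive changes, of Plvap (1.36) and Tie1 (1.26), came from genes above background on 2 of 4 controls. They were 0.73 and 0.89 without controls 2 and 3. Cardiomyocyte markers had positive changes in 10 of 11 (median 0.12, 13.07 to 13.14 against 13.19 to 13.24), and epicardial markers in 8 of 8 (median 0.60, 8.99 to 9.55 against 9.67 to 10.25). In these 4 lists the mean levels of the groups did not overlap. With median-centred arrays, and after taking off the overall median change, the list medians were -0.07 for mesenchyme (4 of 10 positive), 0.45 for endothelium (6 of 11), 0.64 for cardiomyocytes (11 of 11) and 0.88 for epicardium (8 of 8). Bright genes with little change as reported were also positive on this relative scale, as given below. The part of these lists in the values of Etv5, Dusp1, Dusp5, Fos and Ier3 was not tested. Macrophage markers were near background, with 2 of 8 listed genes tested and Adgre1 above background on 0 arrays. Csf1r, which did not pass the filter, was above background on 0 of 4 controls and 4 of 4 mutants, with means of 5.76 and 6.98 and mutants above all controls. The share of all probe sets above background was likewise higher on every mutant array than on any control. Markers of foregut and liver and of neural crest and neurons had 2 of 6 and 3 of 6 listed genes tested. The neuron marker Stmn2 had mutants above all controls and a change of 1.48 (SE 0.30, limma adjusted p = 0.0825), and 1.30 without controls 2 and 3, while its other probe set changed by 0.07. The other 2 neural markers, Tubb3 and Elavl3, changed by -0.11 and -0.86. The foregut and liver markers Afp and Ttr changed by -0.72 (SE 0.74) and -0.11 (SE 0.64), with a median of -0.42. The unweighted means of Ttr were 7.18 in the controls and 7.45 in the mutants. Afp and Ttr were highest on mutant 1 (9.16 and 9.32), followed by control 4 (8.35 and 8.54). Erythroid markers had a median of -0.14 over 6. The part of these markers in the members' values was not tested. The plot of gene lists shows these distributions.

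**Figure D3:**
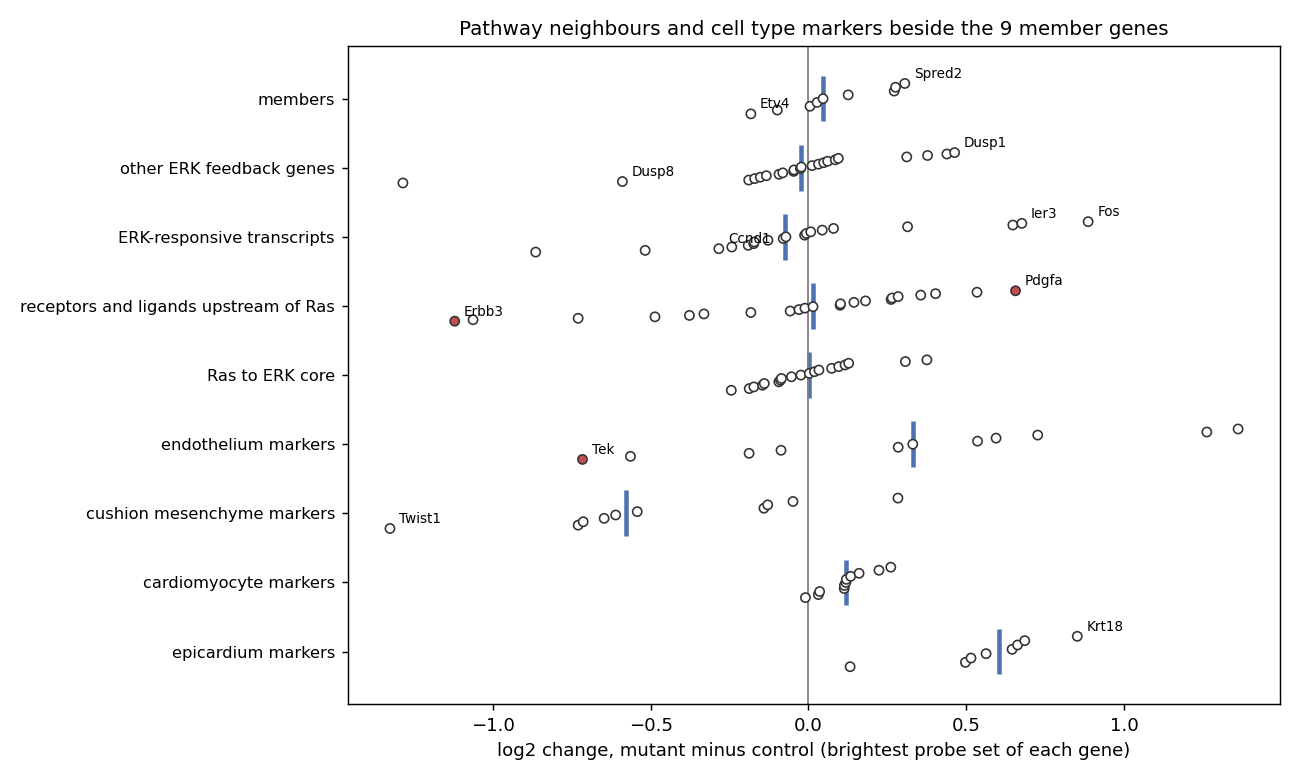
Each circle is the log2 change, mutant minus control, of the brightest probe set of 1 gene, for genes tested and above background on at least 2 arrays of each group, by list. Filled circles passed an adjusted p under 0.05 and blue bars are medians over all tested genes of a list. The 9 member genes lie between -0.18 and 0.30, while mesenchyme markers lie mostly below 0 and epicardial markers above it.

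On the brightest probe set of each member gene, 7 of 9 changes were positive and 2 were negative, with a median of 0.05, and 0 were called. Without controls 2 and 3, 6 of 9 were positive and the median was 0.04. For the other feedback genes the corresponding median was -0.06 and for the Erk-responsive transcripts -0.18. The signs of the last 2 medians depended on the scaling. With median-centred arrays, relative to all probe sets, they were 0.25 for the other feedback genes (15 of 23 positive) and 0.32 for the Erk-responsive transcripts (13 of 20). The value for the members was 0.55 (6 of 9). For the receptors and ligands the value was -0.27, and for the core from adaptors to Erk 0.45. Bright genes with little change as reported were also positive on this relative scale, as given below. The members' positive changes were those of Spred2 (0.30), Dusp4 (0.28), Etv5 (0.27), Dusp6 (0.13), Spry4 (0.05), Spry1 (0.03) and Spred1 (0.005), and the negative ones were those of Spry2 (-0.10) and Etv4 (-0.18).

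The scaling of the arrays decided the sign and size of many of these values. The plot of alternatives gives each change relative to the median of all tested probe sets under the same processing.

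**Figure D4:**
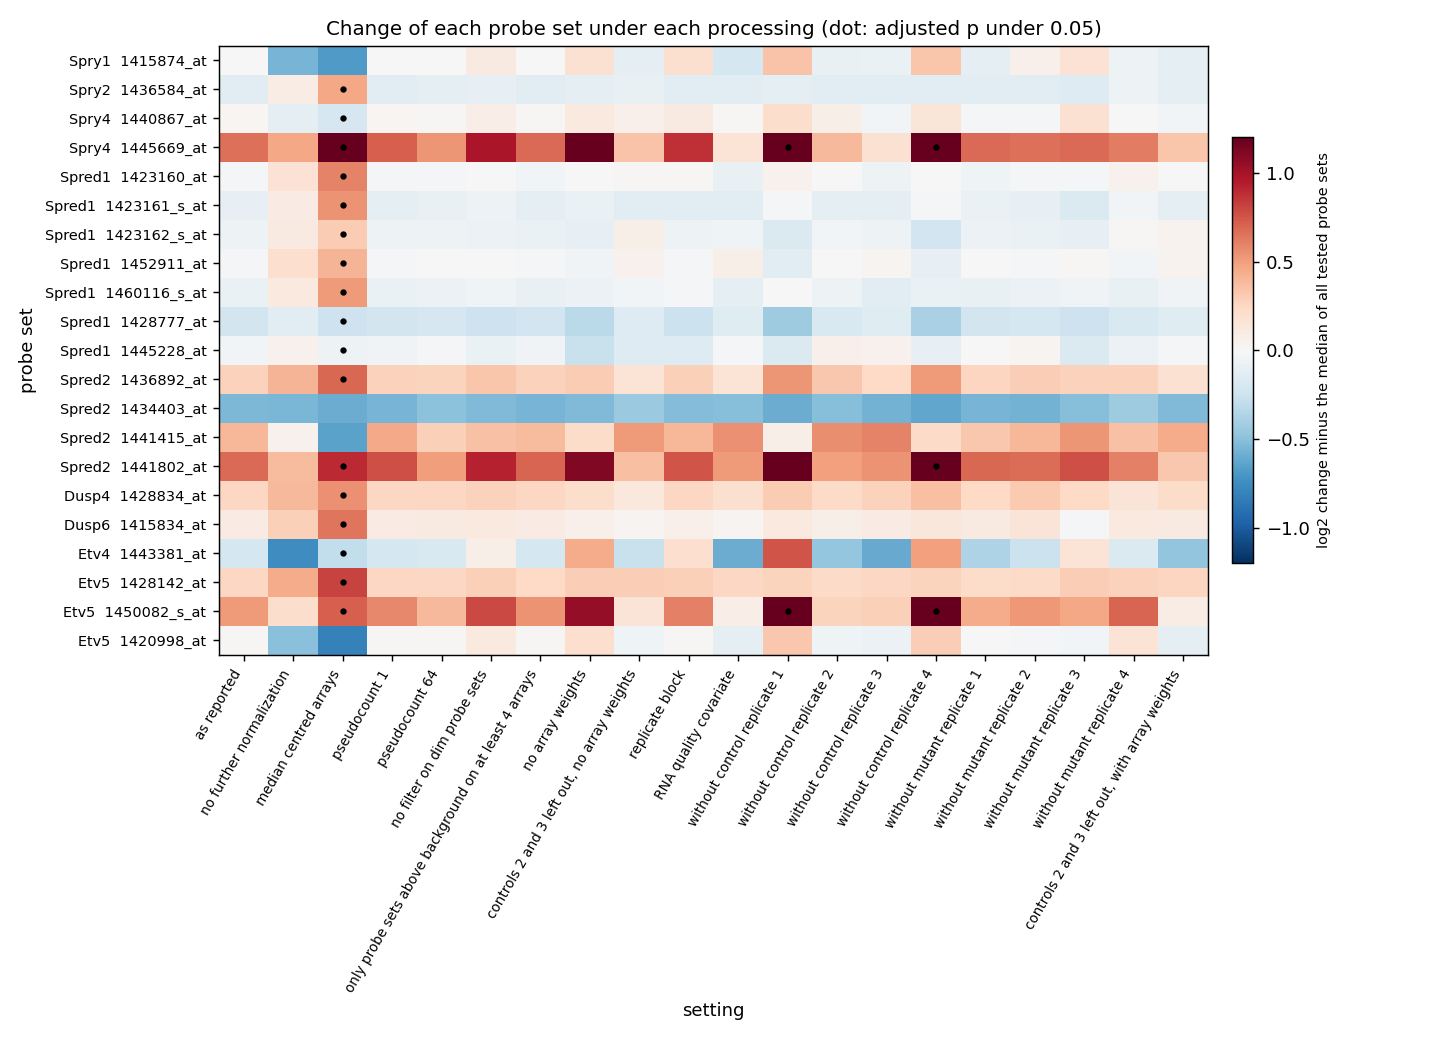
Rows are the 21 measurable member probe sets and columns are ways of processing. The colour is the log2 change minus the median over all tested probe sets in that setting, and a dot marks an adjusted p under 0.05 for the change itself. Etv5 1428142_at is above the median and Spred2 1434403_at below it in every column, and dots appear only with median-centred arrays and without control 1 or control 4.

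Centring arrays on their medians moved the middle of all changes to 1.13, and 17 of 22 member probe sets were called higher. Relative to that value, Etv5 1428142_at was at 0.81, Dusp6 at 0.64, Spry2 1436584_at at 0.46 and Spred2 1434403_at at -0.60, whose change itself was 0.54. The sign of Spry2 relative to all probe sets thus depended on the scaling, while those of Etv5 1428142_at and Spred2 1434403_at did not. Bright genes with little change as reported were also positive on this relative scale, with Igf2 and Myl4 at 0.49 and Actc1 at 0.53. Their changes as reported were -0.03, -0.01 and 0.04. The dim genes Plaur and Spry1, with reported changes of -0.08 and 0.03, were at -1.48 and -0.68. The part of brightness in the members' relative values was not tested.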

How the data were processed

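Linear probe set intensities of 8 Affymetrix arrays, 4 control and 4 mutant pools, were used as deposited. Per the labels, 50 ng of RNA per pool went into NuGen Ovation amplification. The authors made the intensities with MAS5, per the submitters' processing notes. The version and background step are not given in the sources used here. The plain mean is 715 on every array. The fit used log2(intensity + 16), quantile normalization, removal of 64 array controls and of the 40% dimmest probe sets, and limma 3.58.1 in R 4.3.3 with array weights and eBayes (trend, robust). Adjusted p values are Benjamini-Hochberg over 27022 probe sets, two-sided, and replicates are pools. Above background means over an array's 90th percentile of the signals of 27 bacterial controls. Depth has no meaning for arrays, and their number limits precision. On simulated data with 200 changed probe sets, the fit called 0% of changes of 0.25, 5% of 0.5, 32% of 1 and 80% of 2 in log2. The lack of a call thus does not show that a change of the members' size is absent. All member probe sets are named, and of each pathway list every gene called, else the 3 of smallest p. A change is sized only where both groups had 2 or more arrays above background. The members and lists were chosen with earlier results of these data known. Gene symbols come from the platform annotation. Alternatives covered scaling, pseudocount, filter, weights, arrays left out, a replicate block and RNA quality.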

Additional observations from a re-analysis of the deposited data

How the results depend on the processing

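Results with a test are compared by the number of probe sets called. Over all probe sets, 12 were called as reported, 63 on the authors' scaling, 19151 with median-centred arrays (17318 higher and 1833 lower), 34 with a pseudocount of 64, 26 without the filter, 2 without controls 2 and 3 (with or without array weights, the first chosen after seeing the data), 60 with a replicate block, 4 with an RNA quality covariate and 5 to 1680 with 1 array left out. Of the members, 0 were called as reported, 17 with median-centred arrays, 0 to 3 with 1 array left out and 0 in every other alternative tried. Of the pathway genes, 2 were called as reported, 5 on the authors' scaling, 67 with median-centred arrays, 4 each with a pseudocount of 64, without the filter and without array weights, 1 without controls 2 and 3, 5 with the block, 1 with the covariate and 1 to 11 with 1 array left out. The counts of 1680 and 1662 came without control 1 and without control 4.

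With median-centred arrays 7 member changes became positive and passed, at 1.599 for Spry2 1436584_at, 1.68, 1.44, 1.65, 0.89 and 1.07 for Spred1 1423161_s_at, 1423162_s_at, 1460116_s_at, 1428777_at and 1445228_at, and 0.84 for Etv4 1443381_at. The median of all probe sets was 1.13 there. Same-numbered deviations from the group means correlated at -0.12, 0.006, -0.13 and 0.17, and 0 of 4 controls correlated best with the mutant of its number. The replicate block changed no member's call, while calls over all probe sets went from 12 to 60. These values do not decide whether replicate numbers pair the arrays. The adjusted p of Etv5 1428142_at was 4.13e-10 with median-centred arrays and 0.114 to 0.74 in the other alternatives. That of Spred2 1434403_at was 0.0845 to 0.74 over all alternatives. Whether the high background of controls 2 and 3 set the values of dim probe sets was not tested.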
